A study of Platynereis dumerilii with 97 samples.

Results

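The comparison set larvae of Platynereis dumerilii labelled 75 to 84 h after fertilization, 1 larva for each hour, against larvae labelled 66 to 71, 73 and 74 h. It held 18 of the 97 single-embryo libraries of the series, 10 in the later and 8 in the earlier window, chosen by labelled hour alone. Each library came from 1 whole larva, frozen alone after development at 18 °C, and was sequenced by CEL-Seq, which tags and amplifies the 3' ends of polyadenylated RNA. The labels name no strain, genotype or treatment for either window, so the windows differ by age alone as far as the labels go. They mention several matings, each of 1 male and 1 female, and do not say which larvae shared parents, so the p-values measure the spread between these larvae. With 1 larva an hour, that spread also holds the development within a window. The library labelled 72 h was left out.

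Platynereis dumerilii is a marine bristle worm whose embryos pass from spiral cleavage to a ciliated, swimming trochophore and then to segmented larvae. In the nectochaete the segments carry parapodia, paired lateral appendages with bristles, and the animal moves from swimming towards crawling while it still lives on yolk. The stage name rests on the labelled hour, since the table gives transcripts by identifier alone and no stage markers could be checked by name. For the same reason no function is given for any transcript below.

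The larvae had 359964 to 1248041 transcript counts each; the earlier window's median was 816519 and the later window's 677867. The later window had fewer transcript counts per spike-in count, 7.72 ± 0.821 (SD, n = 10) against 9.74 ± 1.86 (SD, n = 8; adjusted p = 0.02502, two-sided exact permutation test, 5 library measures), and 0.06479 without the larva labelled 67 h. Totals (622100 ± 157200, n = 10, against 821400 ± 210800, n = 8; adjusted p = 0.05157) and transcripts detected at an equal depth of 359964 counts (4296 ± 599 against 4903 ± 344; adjusted p = 0.05153, SDs and exact permutation tests) did not pass. Of the 14 calls described next, 9 passed and 5 did not with the log2 total as a covariate, and all 14 passed with spike-in scaling. The library labelled 72 h went against its neighbours: PT_v1_tr_08510 stood at 11820 CPM (the usual unit, here with totals scaled between larvae) there and at 160.5 to 3243 CPM in the 8 earlier larvae, and PT_v1_tr_05158 at 0 against 260.3 to 766 CPM.

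**Figure D1:**
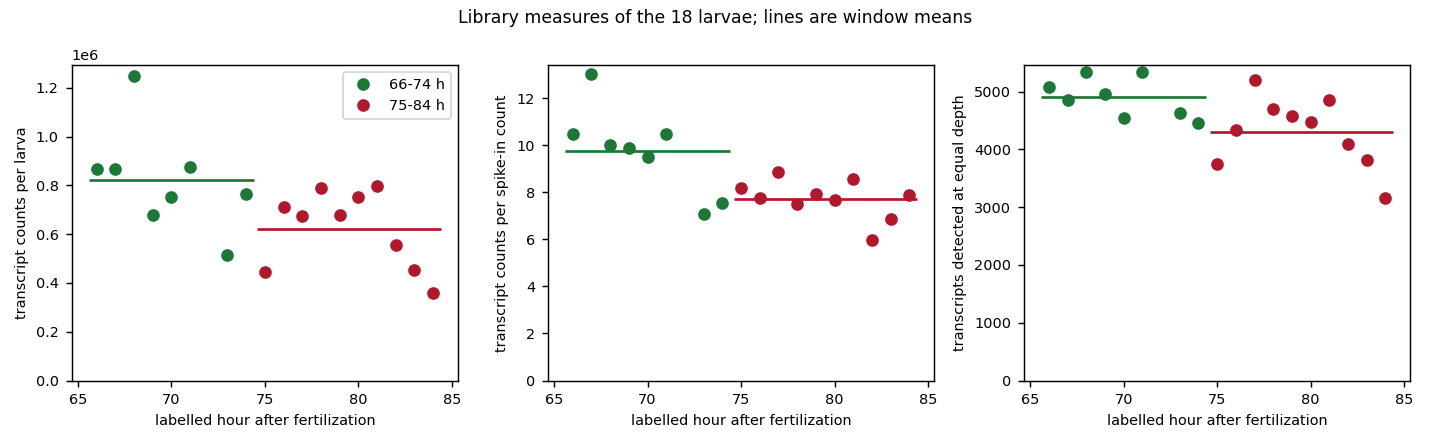
Transcript total, transcript counts per spike-in count and transcripts detected at equal depth (y axes) against the labelled hour (x axis), with 1 point per larva and a line at each window mean. The mean counts per spike-in count are 9.74 and 7.72, and the larva labelled 67 h is the highest at 13.0.

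With the low-count filter few transcripts differed between the windows, and most of those fell. Of 4059 transcripts tested, 14 passed (0.345%; edgeR quasi-likelihood test, Benjamini-Hochberg adjusted p under 0.05), 4 higher (0.0985%) and 10 lower (0.246%) at 75 to 84 h. The falls ran from 2.09-fold to 74.1-fold, and the rises from 2.71-fold to transcripts with no count in any earlier larva. The low-count filter kept some transcripts with no count in any later larva out of this test, among them PT_v1_tr_03387, PT_v1_tr_03875 and PT_v1_tr_09476. In whole larvae, fewer cells of a type and less RNA per cell cannot be told apart. Total-count scaling gave 6 rises and 9 falls. The count was 54 of 6830 with DESeq2, 820 of 9906 with no low-count filter and 23 of 3920 without the larva labelled 75 h. In 8 of the 14 the windows did not overlap, which held for 14 of the 4059 tested (0.345%).

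**Figure D2:**
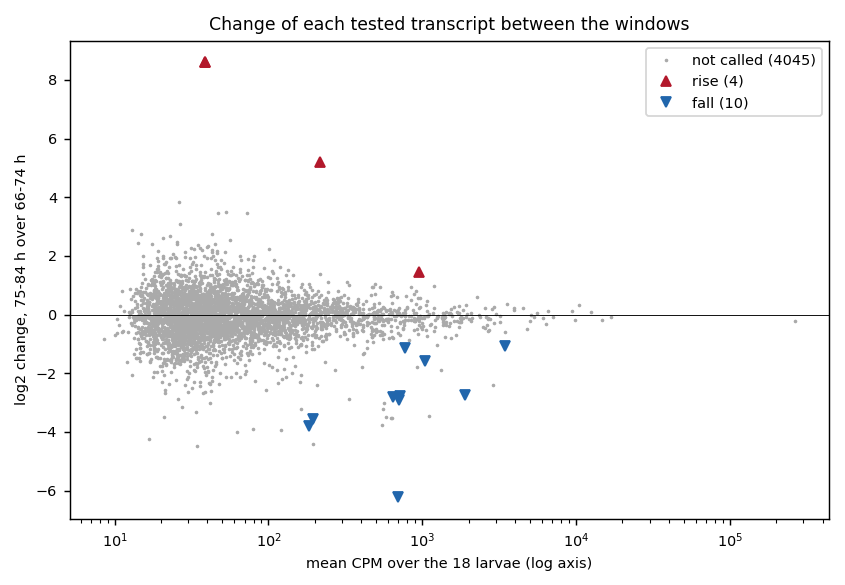
Log2 change at 75 to 84 h over 66 to 74 h (y axis) against the mean CPM over the 18 larvae (x axis, log scale), with 1 point per transcript tested. The 4 rises and 10 falls are coloured and the other transcripts tested are grey.

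A pair of transcripts was absent from the counts of every earlier larva and counted in nearly all later ones. PT_v1_tr_08121 had 0 counts in all 8 larvae of 66 to 74 h and 0, 48.8 and 170.9 CPM as the lowest, median and highest of the 10 later larvae. It had counts in 9 of those 10, from 75 h on, and only the larva labelled 83 h had none. Its pooled later level was 64.6 CPM, at least 130.1-fold higher than the 0.496 CPM that 3 counts in the whole earlier window would give (adjusted p = 0.004993, edgeR). PT_v1_tr_00258 also had 0 counts in all 8 earlier larvae and then 0, 61.0 and 144.8 CPM as its lowest, median and highest, with none only at 79 h. It was at least 141.5-fold higher (pooled level 70.2 CPM; adjusted p = 0.004993, edgeR). Both transcripts passed the low-count filter through the later larvae alone, where they were high. Their p-values therefore give no support that stands apart from that selection. Such folds cover counting error only, because counts are amplified reads. Neither transcript had a count in the 7 larvae of 52 to 58 h or in 6 larvae of 59 to 65 h, and among 50 younger embryos (1 to 51 h without 24 h) PT_v1_tr_00258 was counted in 1 and PT_v1_tr_08121 in 7. At 85 to 94 h PT_v1_tr_00258 was counted in 8 of 10 larvae (93.0 ± 78.5 CPM, SD, n = 10) and PT_v1_tr_08121 in 3 of 10 (14.9 ± 28.1 CPM, SD, n = 10). The 2 transcripts were not tested against each other. The difference between this step and the next did not pass for PT_v1_tr_08121 (adjusted p = 0.1297, edgeR) or for PT_v1_tr_00258 (adjusted p = 0.1282, edgeR).

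PT_v1_tr_06304 rose from near 0 to a median of 374.7 CPM. At 66 to 74 h it had 44.3 CPM in the larva labelled 69 h, 1.63 CPM at 73 h, 39.1 CPM at 74 h and 0 in the other 5. At 75 to 84 h the lowest larva, at 75 h, had 107.9 CPM, the median was 374.7 and the highest, at 82 h, was 737 CPM. The windows did not overlap. The log2 change was 5.19 (SE 1.01, adjusted p = 0.01724, edgeR). Leaving out the larva of 73 h ended the call (adjusted p = 0.06857, edgeR), and so did the total as a covariate (log2 change 4.75, adjusted p = 0.05575, edgeR). The call was also lost with a filter at a mean of at least 10 CPM and without the lowest total of each window (adjusted p up to 0.07094, edgeR). The 6 younger larvae of 59 to 65 h averaged 0.403 ± 0.629 CPM (SD), the 10 older ones of 85 to 94 h averaged 954 ± 341 CPM (SD), and none of the 50 embryos of 1 to 51 h had a count.

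PT_v1_tr_05158 was already present and rose 2.71-fold. Its lowest, median and highest levels were 260.3, 461 and 766 CPM at 66 to 74 h and 722, 1442 and 1918 CPM at 75 to 84 h. The ranges met, with the larvae labelled 76 and 82 h below the highest earlier larva, that of 74 h. The log2 change was 1.44 (SE 0.25, adjusted p = 0.003371, edgeR), but with the library labelled 72 h in the earlier window it did not pass (log2 change 1.63, adjusted p = 0.3992, edgeR). Its mean had been 209.9 ± 148 CPM (SD, n = 6) in larvae of 59 to 65 h, and it reached 1357 ± 375 CPM (SD, n = 10) in those of 85 to 94 h. Within windows its level had no slope that passed (-0.003 log2 per hour, SE 0.045, adjusted p = 1, edgeR).

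**Figure D3:**
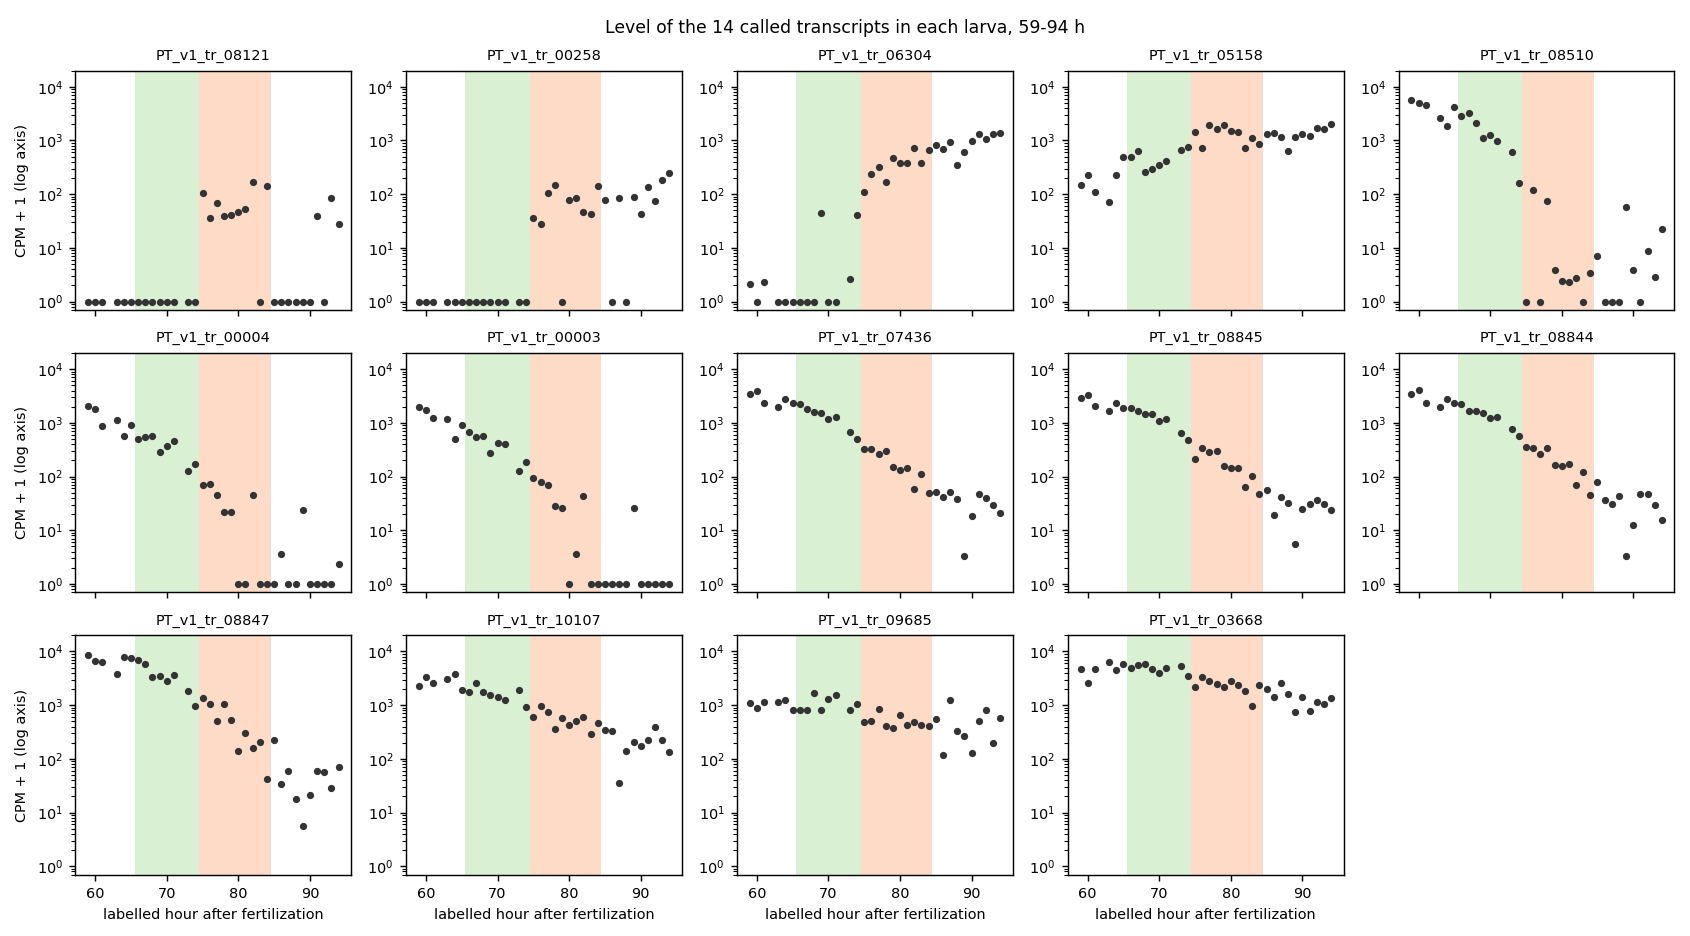
Level of each of the 14 called transcripts as CPM + 1 (y axis, log scale) against the labelled hour (x axis), 1 point per larva from 59 to 94 h without those labelled 62 and 72 h; the green band marks 66 to 74 h and the red band 75 to 84 h. PT_v1_tr_08121 and PT_v1_tr_00258 first leave the floor at 75 h, while PT_v1_tr_07436, PT_v1_tr_08844 and PT_v1_tr_08845 go down across both bands.

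The smallest p-values belonged to PT_v1_tr_07436, PT_v1_tr_08844 and PT_v1_tr_08845, which fell together about 7-fold. PT_v1_tr_07436 had 489.5, 1411 and 2276 CPM as its lowest, median and highest at 66 to 74 h and 48.4, 146.2 and 326.4 CPM at 75 to 84 h. The windows did not overlap, the highest larva was that of 66 h and the lowest that of 84 h. The log2 change was -2.89 (SE 0.36) for PT_v1_tr_07436, -2.77 (SE 0.35) for PT_v1_tr_08844 and -2.80 (SE 0.34) for PT_v1_tr_08845, each with adjusted p = 2.063e-05 (edgeR). The counts of these 3 moved together: the log2 ratio between any 2 had an SD of 0.12 to 0.18 over 18 larvae, and counting alone would give 0.19. They were furthest apart in the larva labelled 75 h, with 109 counts of PT_v1_tr_08845, 162 of PT_v1_tr_07436 and 183 of PT_v1_tr_08844. Likewise PT_v1_tr_00003 and PT_v1_tr_00004 had a log2 ratio with an SD of 0.24 over 14 larvae, against 0.28 from counting. Whether such transcripts are copies between which reads were split was not tested, so their separate calls are uncertain, and with each set counted as 1 the 10 falls come to 7.

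PT_v1_tr_08510 showed the steepest called fall. It went from 160.5, 1185 and 3243 CPM (lowest, median and highest of 8) to 0, 1.58 and 118.8 CPM (of 10). Its later larvae of 76 and 78 h held 118.8 and 73.0 CPM, and the other 8 had 2 counts or fewer. The windows did not overlap, and the log2 change was -6.21 (SE 1.14, adjusted p = 0.01724, edgeR). PT_v1_tr_00004 fell from 127.0, 409 and 567 CPM to 0, 21.0 and 73.0 CPM (log2 change -3.79, SE 0.77, adjusted p = 0.01767, edgeR), and 4 of its 10 later larvae, those of 80, 81, 83 and 84 h, had none. PT_v1_tr_00003 fell from 123.7, 409 and 667 CPM to 0, 26.2 and 92.2 CPM (log2 change -3.57, SE 0.74, adjusted p = 0.02039, edgeR). Neither of the last 2 overlapped between windows. With the total as a covariate both lost their call, at log2 changes of -3.33 for PT_v1_tr_00004 and -3.14 for PT_v1_tr_00003 (adjusted p = 0.4516 and 0.468, edgeR). Both also lost it with a filter at a mean of at least 10 CPM, and PT_v1_tr_00003 in 1 fit over 59 to 94 h. PT_v1_tr_00003 also lost it without the larva labelled 67, 68, 70, 78 or 79 h and PT_v1_tr_00004 without that of 79 h, with an adjusted p of at most 0.0609 (edgeR).

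PT_v1_tr_08847 was the most abundant of the steep falls and the least firm call. Its lowest, median and highest levels were 951, 3407 and 7046 CPM at 66 to 74 h and 41.2, 408 and 1379 CPM at 75 to 84 h. The larva labelled 74 h lay below those of 75, 76 and 78 h, so the windows overlapped. The log2 change was -2.74 (SE 0.57, adjusted p = 0.04403, edgeR), and the call held in 5 of 18 fits that each left out 1 larva (adjusted p up to 0.1108, edgeR). It was also lost with the total as a covariate (log2 change -2.41, adjusted p = 0.468, edgeR). PT_v1_tr_08847 did not pass with DESeq2 size factors, total-count scaling or a filter at a mean of at least 10 CPM either. Its fall over the hours, given below, passed with a far smaller p.

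Smaller falls were seen in PT_v1_tr_10107, PT_v1_tr_09685 and PT_v1_tr_03668. PT_v1_tr_10107 had 921, 1642 and 2550 CPM at 66 to 74 h and 292.0, 536 and 972 CPM at 75 to 84 h, with only the larva of 76 h above the earlier larva of 74 h (log2 change -1.58, SE 0.23, adjusted p = 0.00021, edgeR). PT_v1_tr_09685 had 817, 938 and 1661 CPM and then 372, 462 and 833 CPM. Only its larva of 77 h reached into the earlier range (log2 change -1.13, SE 0.21, adjusted p = 0.005797, edgeR; with the total as a covariate log2 change -0.92, adjusted p = 0.2118). PT_v1_tr_03668 had 3510, 4902 and 5864 CPM and then 965, 2404 and 3370 CPM, with no overlap (log2 change -1.06, SE 0.18, adjusted p = 0.002476, edgeR). It averaged 4811 ± 1322 CPM (SD, n = 6) in larvae of 59 to 65 h, 4866 ± 804 CPM (SD, n = 8) in the earlier window, and by 85 to 94 h was at 1404 ± 550 CPM (SD, n = 10).

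The labelled hour itself was then fitted as a line through the same 18 larvae, a test that does not stand apart from the comparison of windows. Of 5745 transcripts tested, 42 had a slope (0.731%; edgeR, adjusted p under 0.05), 39 falling (0.679%) and 3 rising (0.0522%). The count was 27 of 5491 without the larva labelled 66 h and 73 of 5745 with spike-in scaling. All 10 falls between windows were among them, as were PT_v1_tr_05158 and PT_v1_tr_06304. PT_v1_tr_00258 and PT_v1_tr_08121 did not pass here (adjusted p = 0.05274 and 0.1216, edgeR). The slope of PT_v1_tr_07436 was -0.301 log2 per hour (SE 0.020, adjusted p = 8.618e-13, edgeR), a 2-fold drop each 3.32 h, and that of PT_v1_tr_08847 was -0.329 (SE 0.024, adjusted p = 4.373e-12, edgeR). The 39 falling transcripts, picked on these larvae, made up 3.70% of the counts in the earlier window and 0.984% in the later. They held sets alike in level, of 4, 3, 2 and 2 transcripts, so counts and shares of the 39 may rest on fewer separate ones.

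Of the 42 sloped transcripts 33 were tested between windows and 12 passed there. Those that follow were singled out from the rest after their values were seen. PT_v1_tr_04936, PT_v1_tr_04937, PT_v1_tr_04938 and PT_v1_tr_04939 had nearly the same level in each earlier larva, the highest of the 4 being at most 1.31-fold above the lowest. Over 15 larvae of both windows the log2 ratio of PT_v1_tr_04936 to PT_v1_tr_04939 had an SD of 0.15, against 0.17 from counting. For PT_v1_tr_04936 and PT_v1_tr_04937 the SD was 0.52, against 0.22, and they parted in later larvae (109.4 and 46.3 CPM at 79 h). PT_v1_tr_04936 went from 2519 CPM at 66 h to 430 CPM at 74 h, 251.2 CPM at 75 h and 17.0 CPM at 84 h, with 0 at 82 and 83 h. Their slopes ran from -0.413 to -0.475 log2 per hour (adjusted p from 3.494e-07 to 7.546e-05, edgeR), while their window log2 changes of -3.50 to -3.76 did not pass (adjusted p from 0.062 to 0.06827, edgeR). PT_v1_tr_06032 and PT_v1_tr_06033, also alike in level, had slopes of -0.393 and -0.391 log2 per hour (adjusted p = 0.0002296 each, edgeR). PT_v1_tr_02264 stood at 5240 ± 3062 CPM (SD, n = 8) and 1004 ± 1058 CPM (SD, n = 10), with a slope of -0.342 (SE 0.040, adjusted p = 4.83e-05, edgeR). It was highest in the larvae of 69 and 67 h (10270 and 9037 CPM) and lowest at 84 h (41.2 CPM). The third rising transcript, PT_v1_tr_03048, had 0 counts in the larvae of 66 to 79 h and 27.9 to 118.7 CPM in the 5 of 80 to 84 h (slope 0.656, SE 0.129, adjusted p = 0.004887, edgeR). It had counts in 2 of 10 larvae at 85 to 94 h. Before these windows it was at 49.5 CPM in the larva labelled 60 h and at 44.1 CPM in that of 63 h.

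**Figure D4:**
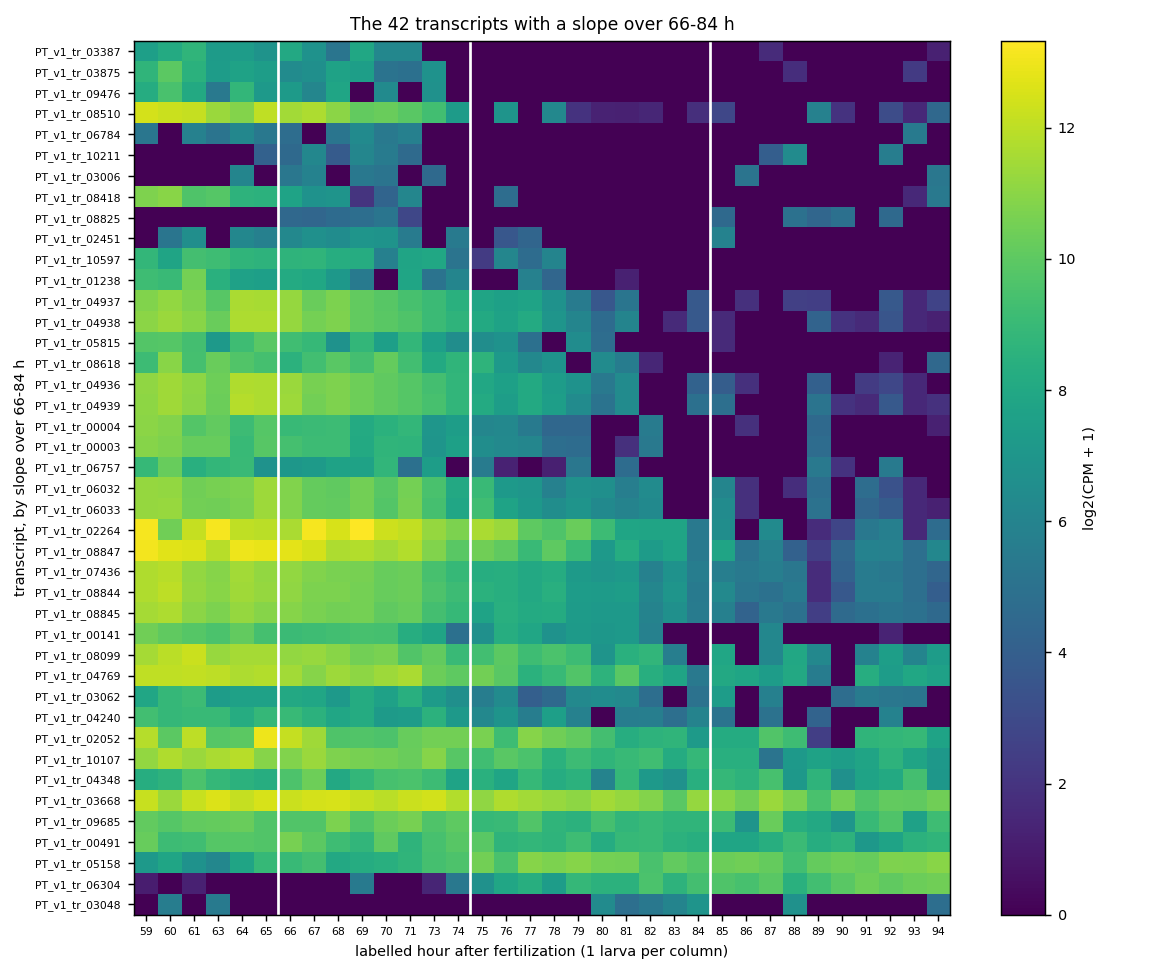
Level as log2(CPM + 1) (colour) of the 42 transcripts with a slope over 66 to 84 h (from the steepest fall at the top to the steepest rise) in each larva of 59 to 94 h (columns by labelled hour, without 62 and 72 h); white lines part the windows. The 39 falling transcripts darken across 66 to 84 h and the 3 rising ones are at the bottom.

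A slope could come from a step at the border, so the hour was also tested within windows, with the window as a factor. This test was added after the data were seen. Of 4059 transcripts, 8 had a slope within windows (0.197%; edgeR, adjusted p under 0.05), all falling. They were PT_v1_tr_07436, PT_v1_tr_08844, PT_v1_tr_08845, PT_v1_tr_08847, PT_v1_tr_02264, PT_v1_tr_04936, PT_v1_tr_04937 and PT_v1_tr_04938. The first 3 named moved together and the last 3 were alike in level in the earlier larvae, so the 8 may not be separate. Of the 14 transcripts called between windows 4 were thus also called within them. The slope of PT_v1_tr_08847 was -0.385 log2 per hour (SE 0.049, adjusted p = 0.0001129, edgeR) and that of PT_v1_tr_07436 -0.277 (SE 0.038, adjusted p = 0.0001601, edgeR). The other 10 did not pass, among them PT_v1_tr_09685 (slope -0.026, SE 0.040) and PT_v1_tr_03668 (-0.063, SE 0.031). Steeper slopes also failed to pass: PT_v1_tr_08510 (-0.569, SE 0.162), PT_v1_tr_00003 (-0.382, SE 0.109) and PT_v1_tr_00004 (-0.341, SE 0.119). Of the 14, 8 had an unadjusted p under 0.05 within windows (edgeR). A slope that did not pass therefore does not show a step at the border.

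Other larvae, on either side, were used to ask whether these transcripts also differed over a wider span. The 10 larvae of 85 to 94 h were compared with 6 of 59 to 65 h, without the library labelled 62 h, and no larva was shared with the first comparison. Over 3919 transcripts 128 differed (3.27%), 34 higher (0.868%) and 94 lower (2.4%; edgeR, adjusted p under 0.05). Of the 14 called transcripts 13 were tested, and 12 passed in the same direction, 3 rises and 9 falls. PT_v1_tr_09685 did not pass (1060 ± 158 CPM, SD, n = 6, and 471 ± 349 CPM, SD, n = 10; adjusted p = 0.1235, edgeR). PT_v1_tr_06304 was higher by 10.57 on the log2 scale (SE 0.59, adjusted p = 7.222e-13, edgeR) and PT_v1_tr_08845 lower (log2 change -6.33, SE 0.34, adjusted p = 5.316e-13, edgeR). Of the 39 falling slopes 35 were tested and 30 were lower at 85 to 94 h. With the library labelled 62 h put in, 55 of 3316 transcripts differed in all.

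Levels in the windows before and after were set beside the falls. Of the 39 falling transcripts 31 (79.5%) had a higher mean at 59 to 65 h than at 66 to 74 h, against 45.8% of all 5745 tested. A lower mean at 85 to 94 h than at 75 to 84 h was seen in 29 (74.4%), against 62.9% of all tested, and 26 of the 39 showed both. For 7 of the 39 a lower mean was not possible, because they had 0 counts in every larva of 75 to 84 h. PT_v1_tr_08847 went from 6848 ± 1741 CPM (SD, n = 6) in larvae of 59 to 65 h through 3596 ± 1976 (SD, n = 8) and 540 ± 467 (SD, n = 10) to 56.7 ± 61.7 CPM (SD, n = 10) in those of 85 to 94 h. PT_v1_tr_08510 went from 3989 ± 1445 CPM (SD, n = 6) to 1540 ± 1090 (SD, n = 8), 20.2 ± 41.4 (SD, n = 10) and 9.65 ± 17.8 CPM (SD, n = 10). Others went another way: PT_v1_tr_08825 had means of 0, 16.9, 0 and 12.5 CPM in the 4 windows in order, and PT_v1_tr_04348 had 435, 628, 286 and 346 CPM. At 85 to 94 h 17 of the 39 (43.6%) had a median of 0 CPM, near the 43.7% of all tested.

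Whether a change was particular to this step was tested as a difference between steps, in 1 fit over 59 to 94 h. Against the next step, 85 to 94 h over 75 to 84 h, 1 of 6824 transcripts passed (0.0147%; 355 at an unadjusted p under 0.05, edgeR). It was PT_v1_tr_03875, counted in 7 of 8 larvae at 66 to 74 h (0, 91.8 and 206.0 CPM as lowest, median and highest), in none of 10 at 75 to 84 h and in 2 of 10 at 85 to 94 h (second difference -10.99, SE 2.16, adjusted p = 0.04754, edgeR). Its pooled level of 94.9 CPM in the earlier window was at least 201.9-fold higher than 3 counts in all 10 later larvae would give, and it was counted in too few larvae to enter the test of windows. With DESeq2 size factors no transcript passed. Against the previous step, 66 to 74 h over 59 to 65 h, 0 of 6824 passed (332 at an unadjusted p under 0.05, edgeR), and 2 did with spike-in scaling. None of the 14 called transcripts passed either test, so no call among them was shown to differ between this step and its neighbours. For PT_v1_tr_08121 and PT_v1_tr_00258 the test against the previous step could not decide. Both were at 0 CPM in the larvae used of 59 to 65 h and of 66 to 74 h. The second difference, 8.48 for each, had an SE of 23440.35 and 17230.16 (edgeR).

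Some transcripts were counted in 1 window only. Of 9906 transcripts counted in any of the 18 larvae, 856 were counted in the earlier window alone and 683 in the later alone, and 954 were counted in all 18. PT_v1_tr_00258, PT_v1_tr_08121, PT_v1_tr_01966 and PT_v1_tr_03875 were those found in the most larvae of their window. PT_v1_tr_01966 had 0 counts in 8 earlier larvae and counts in 8 of 10 later ones, at 0, 14.4 and 52.9 CPM as lowest, median and highest, at least 40.4-fold higher than 3 earlier counts would give, but was too low for the test of windows. It had been counted in 39 of the 50 embryos of 1 to 51 h and in 3 of 6 larvae of 59 to 65 h. Few transcripts were seen at very low counts (a median of 11.7% of those detected had under 10 counts in the earlier window, 12.2% in the later), so a transcript at 0 may have been missed and not absent.

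The most abundant transcripts did not differ by the test. PT_v1_tr_02502 alone held 26.0% ± 6.40 (SD, n = 8) of a larva's transcript counts in the earlier window and 25.5% ± 4.71 (SD, n = 10) in the later, a difference that did not pass (adjusted p = 0.8479, two-sided exact permutation test). It was lowest in the larva labelled 73 h, at 12.8%. The next 7 by level, PT_v1_tr_07080, PT_v1_tr_02622, PT_v1_tr_01204, PT_v1_tr_04659, PT_v1_tr_01333, PT_v1_tr_06574 and PT_v1_tr_09774, had means from 7274 to 17430 CPM in the earlier window. Their log2 changes ran from -0.19 to 0.33, each with an SE of 0.12 to 0.31 and an adjusted p of 0.9989 (edgeR).

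The spread between larvae of 1 window set what could be seen. For transcripts with 200 to 1000 mean counts the SD of the log2 level within windows had a median of 0.60 (n = 350), and for spike-ins of that range 0.43 (n = 9). Among uncalled transcripts PT_v1_tr_10561 and PT_v1_tr_10564 varied least, with SDs of 0.17 and 0.19, followed by PT_v1_tr_02622 and PT_v1_tr_09774 with 0.23 each. PT_v1_tr_10561 and PT_v1_tr_10564 were at most 1.10-fold apart in each earlier larva. Whether they are copies between which reads were split was not tested. PT_v1_tr_10561 was at 1909 ± 184 CPM (SD, n = 8) and 1594 ± 234 CPM (SD, n = 10), a log2 change of -0.26 (SE 0.14, adjusted p = 0.9989, edgeR). Between windows the 19 spike-ins with at least 200 mean counts moved by -0.40 to 0.29 on the log2 scale. Over all 44 spike-ins with at least 20 mean counts the range was wider, -2.40 to 1.48. In simulated counts for this comparison 27% of transcripts changed 4-fold and 65% of those changed 16-fold were recovered, so a change that was not called may still be present.

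**Figure D5:**
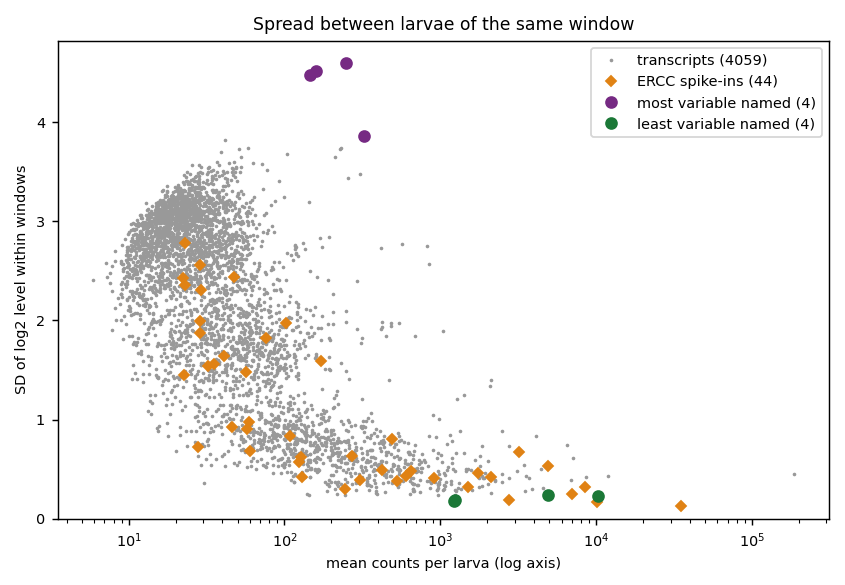
SD of the log2 level between larvae of the same window (y axis, mean of both windows) against mean counts per larva (x axis, log scale), 1 point per transcript tested and orange diamonds for 44 ERCC spike-ins. The 4 least variable transcripts named lie at 0.17 to 0.23 and the 4 most variable uncalled ones at 3.86 to 4.60, far above spike-ins of like counts.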

How the data were processed

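Per the labels' protocols, single frozen embryos were lysed in Trizol and their RNA went through CEL-Seq amplification; no molecular identifiers are named, so counts are reads. The authors deposited 1 table of whole-number counts, not normalized, for 10908 transcripts, 92 ERCC spike-ins and 5 summary rows. The tools were HTSeq 0.5.4p3, CASAVA 1.8 and Bowtie2 2.1.0, per the submitters' processing notes; their roles and settings, the build and the annotation are not given in the sources used here. Summary rows (61.9% of counts in the 18 libraries, 59.4% not aligned) and spike-ins (3.97%) stayed out of library sizes and tests. No 2 of the 18 columns were identical, and every pair differed beyond counting noise (chi-square per transcript at least 26.5).

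Tests across transcripts used edgeR 4.0.16 (quasi-likelihood, robust, TMM, filterByExpr; R 4.3.3) with Benjamini-Hochberg adjustment over all transcripts tested; each SE was taken as the log2 change, without sign, divided by the root of the F statistic. Levels are CPM of TMM-scaled totals over 59 to 94 h, without the library labelled 62 h, and SDs of log2 levels had 0.5 added to each count. Library measures had two-sided exact permutation tests. Named were the called transcripts of at least 20 CPM, the 8 most abundant, the 4 most and 4 least variable uncalled ones, and the 4 with 0 counts in 1 window seen in most larvae of the other. Windows, transcripts and tests were chosen with earlier results of these data known. On simulated counts with 200 changed transcripts, 0, 1 and 2 unchanged ones were called for windows, slope and outside larvae. Recovery of a 4-fold change between windows was 27% for this comparison and 14% for outside larvae. For the slope it was 5%, but there the 4-fold change was spread over all hours from 66 to 84 h. That is a smaller change between the windows, so the 5% does not compare the sensitivity of the tests. Alternatives (DESeq2 1.42.0, other scalings and filters, larvae left out) follow in the closing section. Plots used matplotlib 3.10.9.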

Additional observations from a re-analysis of the deposited data

Results flagged for a closer look

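Within windows of 8 or 10 larvae, 66 series of values (named transcripts on the log2 scale and library measures) were searched for a single larva apart from the rest. The search finds about 1 in 20 by chance, and it found 9. PT_v1_tr_08121 was at 0 in the larva labelled 83 h, with 34.4 CPM the next lowest, and PT_v1_tr_00258 at 0 in that of 79 h, with 27.2 CPM next. PT_v1_tr_03668 was at 965 CPM in the larva labelled 83 h, against 1822 CPM or more in the others of 75 to 84 h. PT_v1_tr_02502 was at 107300 CPM in the larva labelled 73 h, against 231500 CPM or more in the others of 66 to 74 h. PT_v1_tr_02622 was lowest in the same larva, at 11690 CPM against 15050 CPM next, and at 75 to 84 h in that of 84 h, at 8495 CPM against 12080 CPM next. PT_v1_tr_09774 was at 4793 CPM in the larva labelled 71 h, against 6684 CPM next. PT_v1_tr_03875 was at 0 in the larva labelled 74 h, the last of its window, against 29.8 CPM next. The share of reads not aligned was 73.1% in the larva labelled 77 h, against 60.4% next.

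The change of PT_v1_tr_03875 from 66 to 74 h to 75 to 84 h differed from its next step by -10.99 on the log2 scale (adjusted p = 0.04754, edgeR), with 0 counts in every larva of 75 to 84 h.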

How the results depend on the processing

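The 14 calls (of 4059 tested) numbered 54 of 6830 with DESeq2, 820 of 9906 with no low-count filter and 9 of 4059 with the total as a covariate. They came to 22 of 4204 without hours 74 and 75, 22 of 4059 without robust estimation and 28 of 6824 in 1 fit over 59 to 94 h. With single larvae left out they ranged from 11 of 3866 to 23 of 3920. All 14 were among those of DESeq2. With a filter at a mean of at least 10 CPM 14 of 5638 passed, and 10 of these were among the 14 calls. That filter lost PT_v1_tr_06304, PT_v1_tr_00004, PT_v1_tr_00003 and PT_v1_tr_08847. PT_v1_tr_08121, PT_v1_tr_00258, PT_v1_tr_08510, PT_v1_tr_07436, PT_v1_tr_08845, PT_v1_tr_08844, PT_v1_tr_10107 and PT_v1_tr_03668 passed in all 30 alternatives (adjusted p up to 0.0457), and no called transcript changed direction. The 42 slopes (of 5745 tested) numbered 73 of 5745 with spike-in scaling and 849 of 9906 with no filter, and 27 to 42 with single larvae left out. The 128 differences outside (of 3919 tested) numbered 1371 of 9811 with no filter and 55 of 3316 with the library labelled 62 h. The step differences numbered 0 of 6824 with DESeq2 size factors and 538 of 10395 with no filter against the next step. Against the previous step they numbered 2 of 6824 with spike-in scaling and 211 of 10395 with no filter. Slopes within windows numbered 40 of 9906 with no filter. The median log2 change of all transcripts tested was -0.09 under TMM, 0.02 under DESeq2 size factors, 0.06 when totals alone were used and -0.26 under spike-in scaling. With the library labelled 72 h the totals (a difference of -231000) and detection at equal depth (-629) passed, both with adjusted p = 0.02437 (exact permutation), and the share not aligned turned to 0.143 points. The causes of these changes were not tested. With single larvae left out, differences ranged from -243000 to -138300 counts in totals, -706 to -481 in transcripts detected, -2.41 to -1.56 in counts per spike-in count, -2.41 to 0.799 points in the share of PT_v1_tr_02502 and -2.37 to 0.978 points in the share not aligned. No paired analysis was possible because the labels give each embryo its own number. Low counts limited what could be tested: the filter kept 4059 of 9906 transcripts.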

Other observations

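The most variable uncalled transcripts were abundant in some larvae and at 0 in others of like age. PT_v1_tr_05742 had no count in the larvae labelled 67, 73, 80, 81 and 82 h and 1.40 to 50.3 CPM in those of 71, 79 and 83 h. The other 10 had 277.2 to 895.5 CPM, so neighbouring hours could lie at opposite ends (895.5 CPM at 70 h, 8.68 at 71 h). PT_v1_tr_07260 was at 0 in the larvae of 66, 73 and 78 to 82 h, at 6.76 and 59.1 CPM in those of 67 and 77 h, and from 288.2 to 646 CPM in the remaining 9. PT_v1_tr_06411 had counts in 5 of 8 earlier and 6 of 10 later larvae and reached 1406 CPM at 69 h, and PT_v1_tr_02342 ran from 0 at 70, 76 and 79 h to 1507 CPM at 82 h. The SD of their log2 level within windows was 4.60, 4.48, 4.51 and 3.86 in that order, and they were named for being the most variable. The medians over all transcripts of 50 to 200 and of 200 to 1000 mean counts, the ranges these fall in, were 1.51 and 0.60, and those of spike-ins 0.91 and 0.43. In embryos of 1 to 51 h PT_v1_tr_05742 was counted in 46 of 50, PT_v1_tr_07260 in 48, PT_v1_tr_02342 in 34 and PT_v1_tr_06411 in 9. None of the 4 had a slope over the hours that passed (adjusted p = 0.9991 each, edgeR), and no cause was tested.

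The library labelled 72 h, left out of the windows and added only as an alternative, held PT_v1_tr_03875 at 802 CPM, PT_v1_tr_00003 at 2285 CPM and PT_v1_tr_00004 at 2016 CPM, each above the highest of the 8 larvae of 66 to 74 h (206.0, 667 and 567 CPM). PT_v1_tr_07436, at 1196 CPM there, lay between its levels at 71 h (1269 CPM) and 73 h (687 CPM).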
